A study of Canis lupus familiaris with 16 samples.

Results

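TET1, TET2, TET3, DNMT1, DNMT3A and DNMT3B, the genes that write and erase DNA methylation, were examined for methylation of their own loci in canine high-grade B-cell lymphoma, set against healthy canine blood. A peak was taken as theirs where the authors assigned it to the gene, or where it overlapped the 1 kb either side of the gene's transcription start. By this rule 68 of the 145240 peaks in 4 deposited peak lists belonged to the 6 genes, and each of the 6 had at least 1 peak. The lymphoma L list held 26 of them and the healthy L list 18, the lymphoma M-H list 17 and the healthy M-H list 7.

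The lymphoma cells came from lymph node aspirates of 5 dogs aged 5 to 13 years, of tumour stages III to V, a schnauzer, a dachshund, a golden retriever, a mixed-breed dog and a dog of unstated breed. Blood mononuclear cells of 3 healthy dogs aged 2 to 7 years were the controls: a mixed-breed dog, a golden retriever and a standard poodle. No treatment or engineered allele is named for any dog. Methylated DNA was captured and sequenced (MethylCap-seq), and reads pile up into peaks where DNA is methylated. There were 16 libraries, an L and an M-H library from every dog; the sources used here do not say what L and M-H mean, and they are called fractions below. An aspirate can hold cells other than lymphoma cells, and disease, tissue and age differed together between the groups, so their parts cannot be told apart.

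The lists combine the dogs of a group, with 1 list per group and library label, so there is no spread between dogs and no test between groups was possible. Each difference below has no replicate check. Lists held 19867 peaks (healthy M-H) to 45623 peaks (lymphoma L), and read depth is unknown. Fold enrichment, the reads of a peak over a background, was computed by the authors and is ranked here only within a list. An alternative setting applies the same cut of 8 across lists. Their medians ran from 7.77 (healthy L) to 10.1 (lymphoma M-H), so that cut does not remove the same share of each list. No listed value was below 6, so a place without a peak can be methylated at an enrichment under that level. Of 5 measured B-cell markers, none had a lymphoma-only promoter peak in L or in M-H. Of 4 measured T-cell markers, CD8A was lymphoma-only in both and CD5 healthy-only in L, and of 4 monocyte markers, CD14 and FCGR1A were lymphoma-only in both. The part of cell mixture in the results was not tested.

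DNMT1 copies methylation to the new strand after DNA replication, and DNMT3A and DNMT3B place it on unmethylated DNA. The TET enzymes oxidise methylcytosine, which is a step towards its removal. TET2 and DNMT3A are known in human blood cancers for recurrent mutations. CpG island shores, named below, are the flanks of CpG-rich islands, and enhancers are distal regulatory elements; both are given as the authors flagged them.

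**Figure D1:**
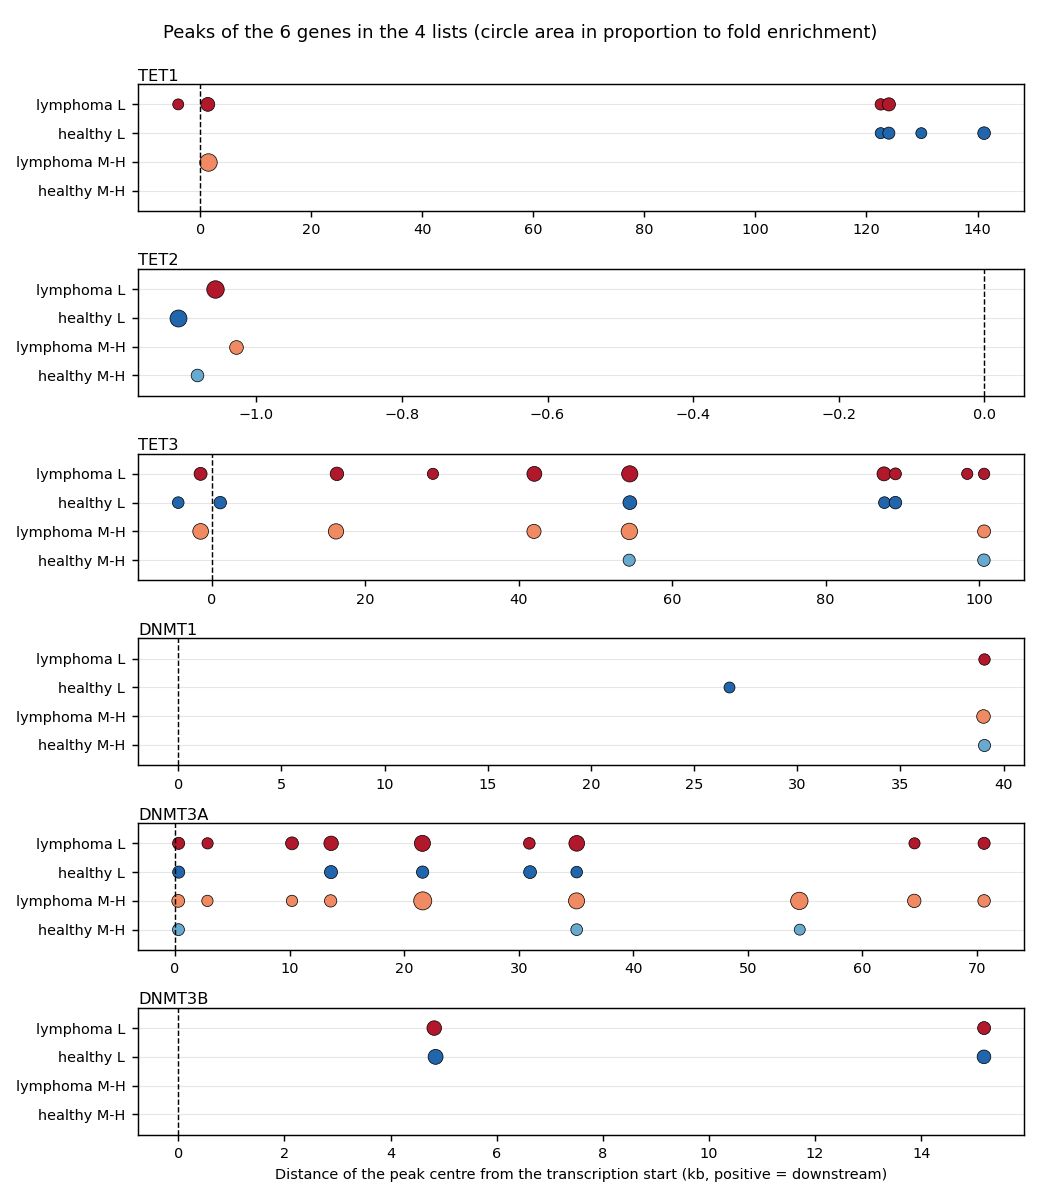
Each circle is a peak of 1 of the 6 genes, placed by the distance of its centre from the transcription start (kb, x axis, a separate scale per gene) in each of the 4 lists (rows), with area in proportion to fold enrichment. Lymphoma rows hold more circles than healthy rows for TET3 (9 against 5 in L, 5 against 2 in M-H) and DNMT3A (9 against 5, and 9 against 3).

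The 6 genes split into those with many peaks and those with few. DNMT3A had 9 peaks in lymphoma L and 5 in healthy L, and 9 in lymphoma M-H and 3 in healthy M-H. TET3 had 9 in lymphoma L and 5 in healthy L, and 5 in lymphoma M-H and 2 in healthy M-H. TET1 had 4 in each L list, 1 in lymphoma M-H and 0 in healthy M-H. TET2 and DNMT1 had 1 peak in each list. DNMT3B had 2 in each L list and none in either M-H list. More lymphoma than healthy peaks were thus listed for DNMT3A and TET3 in both fractions and for TET1 in M-H. The TET1 peak in M-H was assigned by the authors to another gene, LOC106558703. By their assignment TET1 had 0 peaks in each M-H list, 3 in lymphoma L and 4 in healthy L. By the authors' assignment alone, an excess of lymphoma over healthy peaks as large as that of TET3 in L (5 peaks) was found in 0.645% of 18147 genes, and as large as that of DNMT3A in M-H (6 peaks) in 0.595%. The excess of TET3 in M-H (3 peaks) was reached by 4.16% of genes and that of DNMT3A in L (4 peaks) by 1.2%. With lymphoma and healthy lists of equal length DNMT3A kept 3 lymphoma M-H peaks against 3 healthy M-H peaks, so its excess there was 0, while its L counts stayed at 9 and 5. These shares are not adjusted for gene length, and longer genes can hold more peaks. Among the 91 genes with 9 lymphoma peaks in L the median number of healthy peaks was 8, and 11.0% had as few as the 4 assigned to TET3 and 17.6% as few as the 5 of DNMT3A. In M-H, the 258 genes with 5 lymphoma peaks had a median of 2 healthy peaks, the number at TET3, and 50.8% had as few. The 52 genes with 9 lymphoma peaks in M-H had a median of 5 healthy peaks, and 23.1% had as few as the 3 of DNMT3A.

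**Figure D2:**
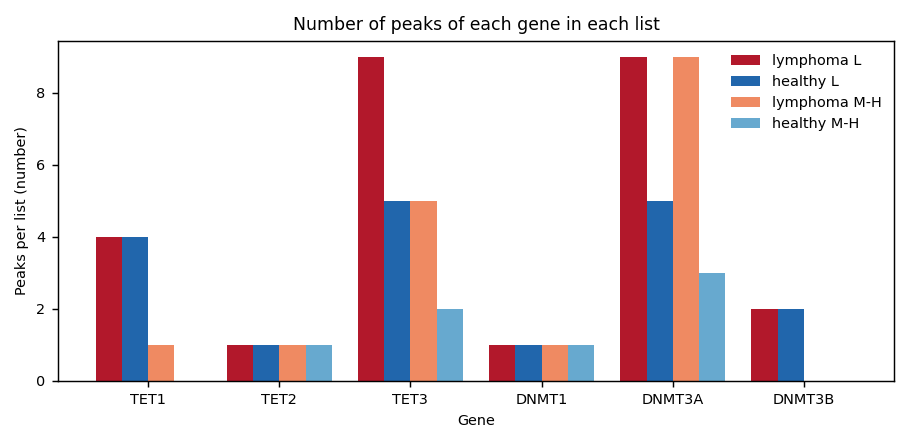
Bars give the number of peaks (y axis) of each gene (x axis) in the lymphoma L, healthy L, lymphoma M-H and healthy M-H lists. DNMT3A and TET3 reach 9 peaks in lymphoma L, while TET2 and DNMT1 have 1 in each list and DNMT3B has none in M-H.

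Overlapping peaks of the lists were joined into loci, which gave 32 loci for the 6 genes. Of these, 8 carried a peak in both lymphoma lists and in no healthy list, 4 at DNMT3A, 3 at TET3 and 1 at TET1. That is 25.0% (95% exact binomial interval 11.5 to 43.4, counting error only) beside 10.5% of 45798 gene-assigned loci, a background not matched for gene length or CpG content. Loci of 1 gene are not independent, so the interval is too narrow. The count was 4, beside 5.4% of loci, with lymphoma and healthy lists of equal length, and 4, beside 7.73%, where no healthy peak was allowed within 5 kb. It was also 4, beside 5.29%, with a fold enrichment of at least 8 in the lymphoma lists alone. The total number of loci of the 6 genes was not counted for equal list lengths or for the fold threshold. The counts under those settings therefore have no share to compare with their backgrounds. Peaks in lymphoma lists only stood at 10 of the 32 loci, beside 25.4%, and in healthy lists only at 5, beside 24.0%. Conversely, 0 of the 32 were in both healthy lists and no lymphoma list, where the background is 0.378%. All 4 lists shared a peak at 4 of the 32 loci (12.5%, 3.51 to 29.0), beside 14.9% of gene-assigned loci. At least 4 loci in both lymphoma lists and no healthy list, the number at DNMT3A, were found in 0.303% of genes, and at least 3, the number at TET3, in 0.942%. The 4 loci of DNMT3A fell to 0 with lists of equal length and to 0 with a fold enrichment of at least 8 in the lymphoma lists alone, and under both settings the 4 loci left were 3 at TET3 and 1 at TET1. With absence required over 5 kb, 2 were left at DNMT3A, 2 at TET3 and 0 at TET1.

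**Figure D3:**
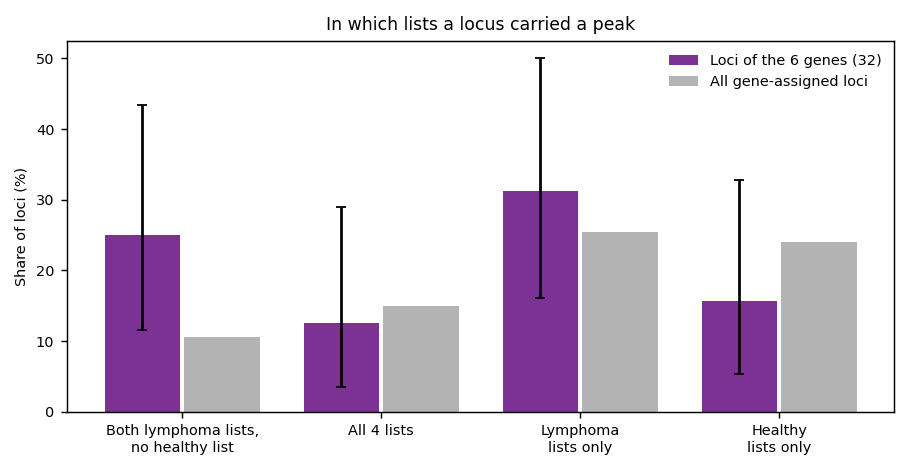
Bars give the share of loci (%, y axis) by the lists in which they carried a peak, for the 32 loci of the 6 genes, with 95% exact binomial intervals that cover counting error only, and for all gene-assigned loci. The share in both lymphoma lists and no healthy list was 25.0% for the 6 genes and 10.5% for all; the share in healthy lists only was 15.6% and 24.0%.

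Among the erasers, TET3 had the most loci, 11, on chromosome 17, with its start recovered at 49083454 on the minus strand (CanFam3.1, as for all coordinates here). A single TET3 locus carried a peak in all 4 lists: coding sequence 54055 to 54815 bp downstream of the start (49028640 to 49029399), flagged as shore. Its fold enrichment was 13.4 in lymphoma L, 9.74 in healthy L, 13.8 in lymphoma M-H and 7.50 in healthy M-H, above 82.7%, 76.3%, 73.9% and 38.3% of the peaks of the same list.

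In both lymphoma lists and in no healthy list, TET3 carried peaks at 3 loci, all flagged as shore. One lay upstream of the gene (49084678 to 49085226), with 8.61 in lymphoma L and 12.6 in lymphoma M-H. Another lay in an intron 15678 to 16874 bp downstream of the start (49066581 to 49067776), with 9.30 in lymphoma L and 12.0 in lymphoma M-H. The last lay in an intron 41568 to 42397 bp downstream (49041058 to 49041886), with 11.3 in lymphoma L and 10.2 in lymphoma M-H. Both intronic loci were also flagged as enhancer. For shore-flagged gene-assigned loci the background of this pattern is 18.5%, and for enhancer-flagged ones 12.6%. Lower-ranked TET3 peaks of lymphoma L alone stood in introns at 6.40 and 6.44, above 8.45% and 10.9% of the list. The coding-sequence peak 100285 to 101047 bp downstream was listed in lymphoma L (6.60), lymphoma M-H (8.62) and healthy M-H (7.98). Both L lists, but no M-H list, had intronic peaks 87348 to 87910 bp and 88908 to 89307 bp downstream. The first had 9.98 in lymphoma L and 7.03 in healthy L, above 60.3% and 33.8% of those lists. The second had 7.2 in lymphoma L and 8.08 in healthy L, above 26.1% and 54.0%.

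Around the TET3 start the groups had peaks at different places. In the lymphoma lists the nearest TET3 peak ended 1238 bp (L) and 1223 bp (M-H) upstream, just outside the 1 kb window but within the authors' promoter flag. In healthy L a peak of 7.98 began 751 bp downstream of the start (49082082 to 49082703), inside the window, and another of 6.95 lay 4057 to 4783 bp upstream. The authors assigned the downstream one to LOC111090655, whose start lies 600 bp downstream of that of TET3 on the opposite strand. By the 1 kb rule TET3 was therefore healthy-only in L and without a promoter peak in M-H. Under a window from 2 kb upstream to 500 bp downstream of the start, TET3 was lymphoma-only in L and in M-H, beside 16.7% and 19.0% of genes. Both lymphoma L (6.41) and healthy L (6.65) had a further LOC111090655 peak, at 1773 to 2189 and 1814 to 2284 bp downstream of the TET3 start. The direction of the TET3 promoter call thus depended on the window.

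**Figure D4:**
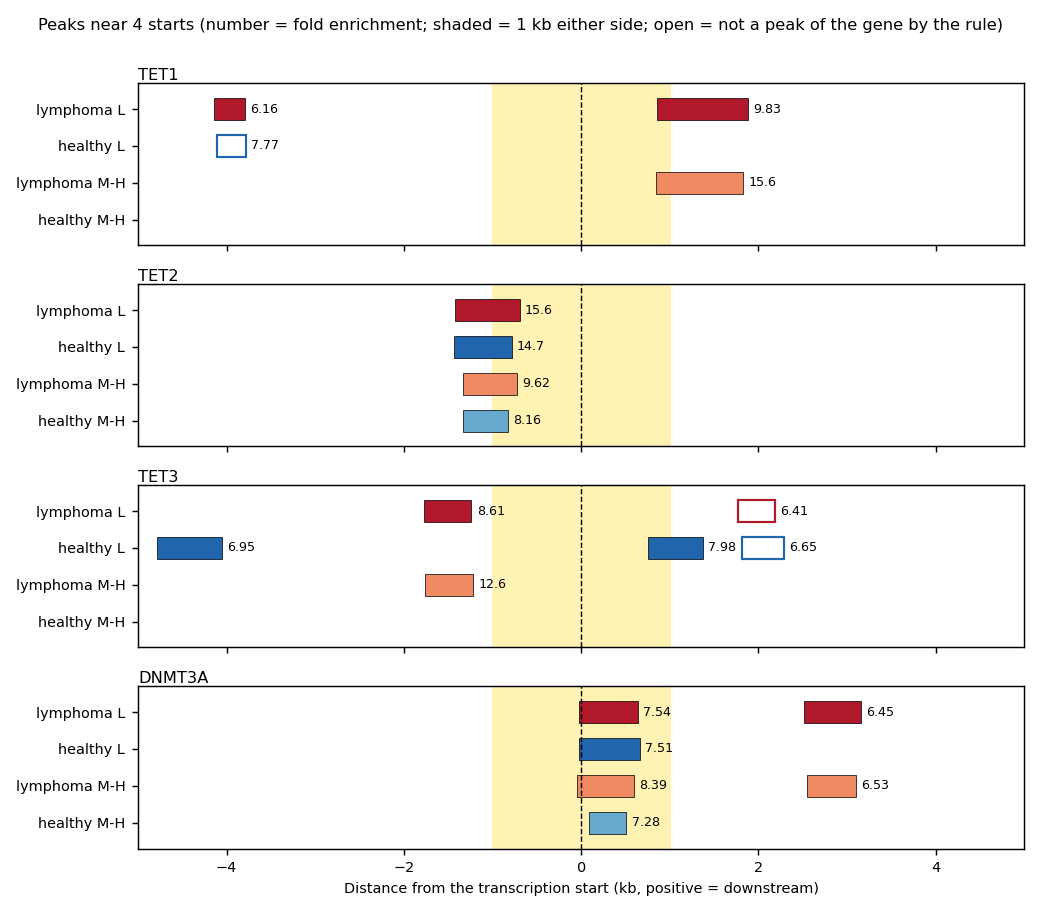
Bars span the peaks within 5 kb of 4 transcription starts (x axis, kb from the start, downstream positive) in the 4 lists (rows), with fold enrichment beside each bar; the 1 kb window is shaded, and open bars are peaks assigned to another gene outside it. TET2 and DNMT3A have a peak in the window in all 4 lists, TET1 in both lymphoma lists, and TET3 in healthy L.

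TET1 had 6 loci on chromosome 4, with its start at 19759662 on the plus strand. The locus nearest the start (19760502 to 19761540) carried a peak in both lymphoma lists, 9.83 in L and 15.6 in M-H, above 58.8% and 81.7% of those lists, and in neither healthy list. It was flagged as shore and as promoter, and it was assigned to LOC106558703, whose start lies within it, 1669 bp downstream of that of TET1, on the opposite strand. The peaks begin 856 bp (L) and 840 bp (M-H) downstream of the TET1 start, and the lymphoma-only call ended with a window that reached only 500 bp downstream. At a distance of 3783 to 4141 bp upstream, lymphoma L had a peak of 6.16 assigned to TET1 and healthy L a peak of 7.77 assigned to LOC106558703, which the rule does not count for TET1. With that healthy peak within 5 kb of the start, TET1 was not lymphoma-only in L where absence was required over 5 kb, but was so in M-H. Toward the far end of the gene, lymphoma L and healthy L shared a coding-sequence peak (6.65 in lymphoma, 6.24 in healthy) and an intronic peak (8.86 in lymphoma, 7.49 in healthy). A coding-sequence peak (6.13) and a peak downstream of the gene (8.18) were listed in healthy L alone. No M-H list had a peak in this far part of TET1.

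TET2, with its start at 26021746 on the plus strand of chromosome 32, had a single locus (26020315 to 26021050), listed in all 4 lists. This shore-flagged peak lay upstream, with its near edge 695 bp from the start in lymphoma L, 784 bp in healthy L, 722 bp in lymphoma M-H and 830 bp in healthy M-H. Its fold enrichment was 15.6 in lymphoma L and 14.7 in healthy L, above 91.1% and 98.4% of those lists. In lymphoma M-H it was 9.62 and in healthy M-H 8.16, near the middle of each list (above 46.0% and 50.4%). The healthy L value was thus among the highest of its list, and the groups did not differ in whether the peak was present.

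Among the writers, DNMT3A had 10 loci on chromosome 17, with its start at 19563074 on the minus strand. A locus at the start itself (19562412 to 19563125) was listed in all 4 lists, with 7.54 in lymphoma L, 7.51 in healthy L, 8.39 in lymphoma M-H and 7.28 in healthy M-H. It was flagged as shore and enhancer, and its values were above 31.4%, 44.2%, 34.5% and 32.3% of the list. An intronic locus 34813 to 35296 bp downstream (19527779 to 19528261) was also in all 4, with 12.6 in lymphoma L, 6.87 in healthy L, 13.2 in lymphoma M-H and 7.04 in healthy M-H. In both M-H lists, but in neither L list, an intronic peak stood 54149 to 54841 bp downstream, with 15.4 in lymphoma M-H and 6.18 in healthy M-H, above 81.2% and 4.33% of those lists.

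DNMT3A carried peaks in both lymphoma lists and in no healthy list at 4 loci, none of them flagged as shore. They lay in introns 2516 to 3158 bp (19559917 to 19560558, flagged as enhancer), 9974 to 10441 bp and 64287 to 64771 bp downstream of the start, and in the 3' UTR 70250 to 70996 bp downstream (19492079 to 19492824). Their values ran from 6.37 to 8.49 in lymphoma L and from 6.51 to 9.18 in lymphoma M-H, above 7.90% to 44.8% and 9.09% to 42.1% of the peaks of those lists. At 2 further intronic loci, 13323 to 13846 bp and 21169 to 22012 bp downstream, both lymphoma lists and healthy L had a peak but healthy M-H did not. The second, a shore (19541063 to 19541905), had 13.2 in lymphoma L, 7.72 in healthy L and 16.7 in lymphoma M-H, above 81.7%, 46.7% and 86.7% of the list. Another shore-flagged intronic locus, 30617 to 31242 bp downstream, had a peak in both L lists but in neither M-H list. It had 6.94 in lymphoma L and 8.4 in healthy L, above 21.3% and 59.7% of those lists. No DNMT3A locus was listed in healthy lists alone.

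**Figure D5:**
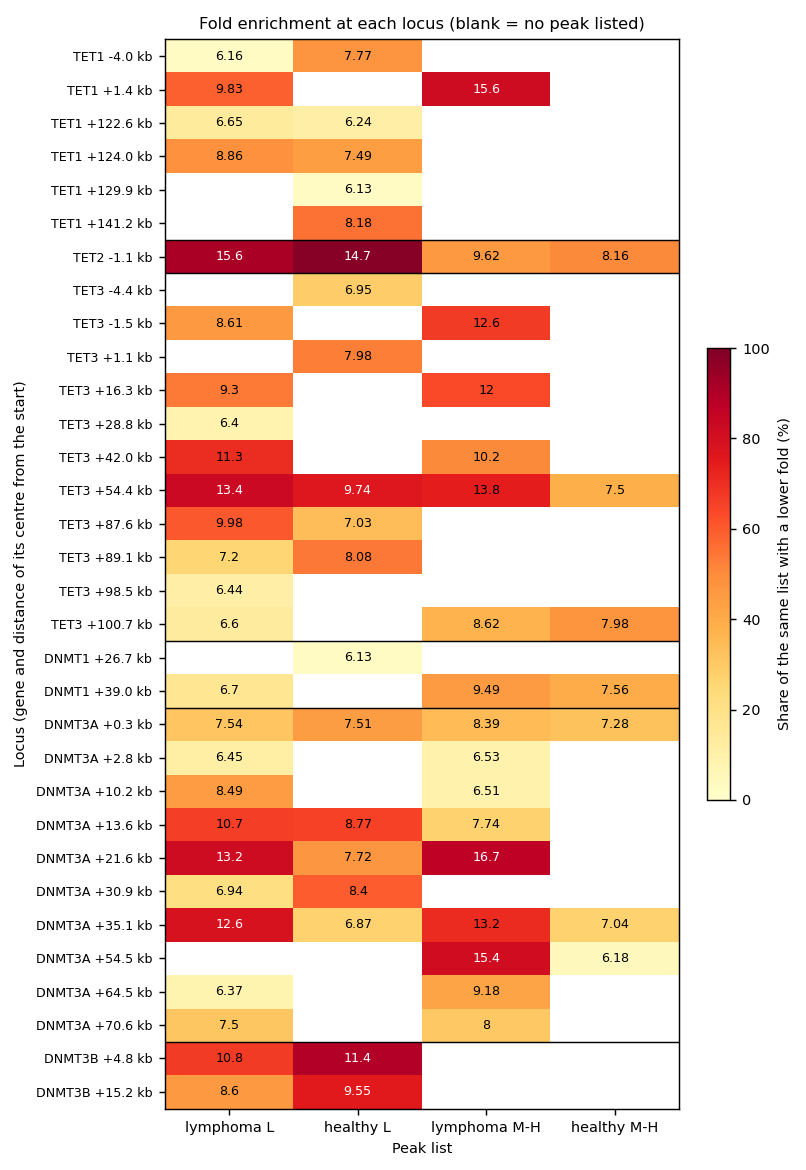
Each row is a locus, named by gene and the distance of its centre from the start, and each column a list; the number is the fold enrichment and the colour the share of the same list with a lower fold (%), blank where no peak was listed. Blank healthy cells beside filled lymphoma cells in both fractions are seen at 4 DNMT3A, 3 TET3 and 1 TET1 loci, and TET2 is filled across.

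DNMT1, with its start at 50872214 on the plus strand of chromosome 20, had no promoter peak in any list. An intronic locus 38510 to 39588 bp downstream (50910724 to 50911801), flagged as shore in both lymphoma lists and as CpG island in healthy M-H, had 6.70 in lymphoma L, 9.49 in lymphoma M-H and 7.56 in healthy M-H. The lymphoma peaks were 1078 bp (L) and 1025 bp (M-H) long and the healthy M-H peak 443 bp. Healthy L had no peak there but a weak one of 6.13 in another intron, above 2.98% of its list. DNMT3B, with its start at 22096387 on the plus strand of chromosome 24, had a pair of intronic peaks (22101001 to 22101436 and 22111365 to 22111770) in L only. They had 10.8 and 8.60 in lymphoma L, above 67.1% and 45.8% of that list, and 11.4 and 9.55 in healthy L, above 89.2% and 75.1%. Neither gene had a peak within 1 kb of its start in any list.

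By the 1 kb rule, the lymphoma-only promoter in L was that of TET1, 1 of 6 genes beside 16.0% of 18147 genes, and the healthy-only one that of TET3, 1 of 6 beside 3.85%. TET2 and DNMT3A had a promoter peak in both groups, beside 15.5% of genes. In M-H TET1 was again lymphoma-only, beside 18.7% of genes, none was healthy-only, beside 0.716%, and TET2 and DNMT3A were in both, beside 10.2%. A promoter lymphoma-only in L and in M-H, as at TET1, was found in 10.4% of genes. The DNMT3A call in M-H was lymphoma-only with a fold enrichment of at least 8 and healthy-only with lists of equal length, where its lymphoma peak of 8.39 was removed. With 6 genes these counts are too few to be told apart from the background or to be called near it.

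Peak by peak, the lists were compared with the sharing of all gene-assigned peaks. In L, 12 of 26 lymphoma peaks did not overlap a healthy peak, beside 38.6% of all gene-assigned lymphoma L peaks, and 5 of 18 healthy peaks did not overlap a lymphoma peak, beside 36.1%. The shared shares were 53.8% (33.4 to 73.4) of the lymphoma L and 72.2% (46.5 to 90.3) of the healthy L peaks, with exact binomial intervals. In M-H, 10 of 17 lymphoma peaks were unshared, beside 52.1%, and 0 of 7 healthy peaks, beside 10.2%. All 7 healthy M-H peaks overlapped a lymphoma peak (interval 59.0 to 100%). At these 7 loci the lymphoma peak was the longer one in 7, beside 94.0% of 17764 loci over the genome.

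M-H and L were compared within each group, since the same dogs gave both libraries. In lymphoma, 1 of 17 M-H peaks, the one of DNMT3A named above, did not overlap an L peak, beside 19.1% of gene-assigned peaks, and 10 of 26 L peaks did not overlap an M-H peak, beside 38.7%. In healthy cells, 3 of 7 M-H peaks, 1 each at TET3, DNMT1 and DNMT3A, lacked an L peak, beside 39.6%, and 14 of 18 L peaks lacked an M-H peak, beside 74.5%. Island shores went with presence in M-H: 9 of 10 shore-flagged loci of the 6 genes had an M-H peak, against 8 of 22 others. Over all gene-assigned loci, 83.0% of those with the flag and 38.5% of those without it had an M-H peak. Introns held 45 of the 68 peaks (66.2%), beside 58.3% of gene-assigned peaks in the 4 lists.

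Other genes of the pathway were taken from a list of 52 cofactors, readers and partners of these enzymes, of which 36 were measured. A gene counts as measured only if the authors assigned it at least 1 peak in some list, so the other 16 had no assigned peak in any of the 4 lists, and the 18147 background genes and the marker genes passed the same filter. In L the promoters of 4 of the 36 measured genes (11.1%) were lymphoma-only, beside 16.0% of the background genes. Those of 3 had a peak in both groups. In M-H these numbers were 5 (13.9%, beside 18.7%) and 2, while 0 were healthy-only in either fraction. Of the lymphoma-only genes, CXXC1, GADD45G and OGT had assigned peaks in no healthy list, so they were measured through lymphoma peaks alone. Nothing is read from these counts against the backgrounds given above. KDM2A, a histone demethylase that binds unmethylated CpG islands, had the highest value, 18.5 in lymphoma L and 14.0 in lymphoma M-H, with a peak just upstream of its start. HMCES, which binds abasic sites in DNA, had 8.49 in lymphoma L and 10.5 in lymphoma M-H, with peaks across the start. CXXC1, which binds unmethylated CpG, had 6.34 in lymphoma L and 8.39 in lymphoma M-H, with peaks beginning 991 bp and 964 bp downstream, at the edge of the window. VDR, the vitamin D receptor, was lymphoma-only in L alone (9.36), and GADD45G, a stress-induced gene (8.61), and OGT, a glycosyltransferase that partners with TET proteins (7.04), in M-H alone. ZBTB4, a reader of methylated CpG, and NSD1, a histone methyltransferase, had promoter peaks in all 4 lists. The authors assigned the ZBTB4 promoter peaks of lymphoma L and healthy M-H to another gene, POLR2A. IDH2, an enzyme that makes the cosubstrate of the TETs, was called in both groups in L, but its lymphoma and healthy peaks lay at different places and did not overlap.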

How the data were processed

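Captured DNA was made into libraries and read by paired-end Illumina sequencing, per the labels' protocols. The submitters' processing notes name BWA, MACS2 and CanFam3.1 and give no tool versions or roles. The authors deposited 1 peak list per group and library label; whether reads or peaks of the dogs were combined is not stated. Per the file headers the lists give the fold enrichment (a ratio) of each peak, its gene, and other distances and flags as the authors deposited them. They hold no read counts or p-values, so depth is unknown.

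Starts of peaks were read as 0-based and are printed 1-based. Rows with shifted gene columns (4 in lymphoma L, 2 in healthy L and 3 in lymphoma M-H) were kept without a gene, and 51 of 54 symbols turned into dates were restored from the gene description. Transcription starts were recovered from peak start and distance, giving 1 start for 18111 of 18147 genes and for each of the 6 genes. All 6 were matched by symbol as protein-coding in a RefSeq table of another assembly, of which no coordinate was used.

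An overlap of 1 bp or more made 2 peaks shared. Promoters were 1 kb either side of the start. Loci joined overlapping peaks of the 4 lists. The genes, lists and rules were chosen with earlier results of these data known. The rule named all 6 genes, and of the pathway list each gene with a promoter peak in 1 group only; ZBTB4, NSD1 and IDH2 were named after their values were seen. Loci, the numbers 3 and 4 per gene and the excess shares were set from the values of these genes and are descriptions. No test between groups was run. Intervals are exact (Clopper-Pearson, 95%). Overlap and promoter steps were tested on simulated data. Python 3.11.15, pandas 2.3.3 and scipy 1.17.1 were used.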

Additional observations from a re-analysis of the deposited data

How the results depend on the processing

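Of 89 values of 25 results under another setting, 61 kept within 1.5 times of the reported count or within the interval of the share, and 28 did not. With a fold enrichment of at least 8, the peaks of the 6 genes numbered 14 in lymphoma L, 8 in healthy L and 1 in healthy M-H. Of the remaining lymphoma M-H peaks 7.69% were shared with healthy M-H and 61.5% with lymphoma L, and the 1 healthy M-H peak was shared with healthy L (100%). At that threshold 0 members were healthy-only and 1 was in both in L, and 2 were lymphoma-only (DNMT3A besides TET1) and 1 in both in M-H. Of the pathway list, NSD1 became the 1 healthy-only gene in L, with 1 in both in each fraction. With equal list lengths, which removed lymphoma M-H peaks below 9.32, lymphoma M-H kept 10 peaks, and in M-H DNMT3A became healthy-only (1) and 1 gene stayed in both. With 500 bp either side, 0 members were lymphoma-only in L or in M-H, 0 healthy-only in L and 1 in both in each. With 2 kb upstream to 500 bp downstream, 0 members were healthy-only in L, since TET3 was then lymphoma-only (1 gene, beside 16.7% of genes), and USP7 was the 1 healthy-only gene of the pathway list. TET1 lost its lymphoma-only call with that window. With absence required over 5 kb, 0 members were lymphoma-only and 0 healthy-only in L. Of the pathway list in L, IDH2 became lymphoma-only and CXXC1 lost its call with the fold threshold and with either other window. In M-H, CXXC1 lost its call with either other window. With the fold threshold OGT lost its M-H call and ZBTB4 became lymphoma-only there. The window from 2 kb upstream made TRIM28 lymphoma-only in both fractions and WT1 in M-H.

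The number of loci in both lymphoma lists and no healthy list was 8. Alternatives chosen after seeing the data gave 6 with a fold of at least 8 in every list (background 16.0%), 4 with that threshold in the lymphoma lists alone (5.29%), 4 with equal list lengths (5.4%), 4 with absence over 5 kb (7.73%) and 7 with the authors' assignment only. The 6 were 3 at TET3, 1 at TET1 and 2 at DNMT3A. These DNMT3A loci, 21169 to 22012 bp and 34813 to 35296 bp downstream, were not among the 8. Their healthy peaks (7.72 in L at the first, 6.87 in L and 7.04 in M-H at the second) were removed by the threshold. The total number of loci of the 6 genes was not counted under the fold and length settings, so these counts have no share beside the backgrounds. The cause of the shifts in number was not tested beyond the construction of each setting. No paired analysis was possible because the lists are pooled over dogs, and for the same reason no dog could be left out. Unknown depth limits what an absent peak shows.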

Other observations

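Upstream of DNMT3A an intergenic locus, outside the rule, carried a peak in both lymphoma lists and in no healthy list within 10 kb of the start. It lay 6676 to 7305 bp upstream in lymphoma L (chromosome 17, 19569751 to 19570379, fold enrichment 9.98) and 6765 to 7209 bp upstream in lymphoma M-H (19569840 to 19570283, 7.15). Of gene-assigned loci 10.5% had this pattern, and the share over intergenic loci is not given here. The lymphoma M-H value is below 9.32, so lists of equal length would not keep that peak. No other peak outside the rule was listed within 10 kb upstream of the 6 starts, except the healthy L peak of 7.77 near TET1 described above.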
